A study of Mus musculus with 10 samples.

Results

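The Hox genes are the 4 clustered families of homeobox genes named Hoxa to Hoxd with a position number. They were taken from the array annotation as every symbol of that form on a probe set with 1 gene symbol, and where a gene had several probe sets, the one brightest on average across the arrays stood for it. This gave 33 Hox genes of the 18193 genes named, from 48 probe sets: 9 of the Hoxa cluster, 9 of Hoxb, 7 of Hoxc and 8 of Hoxd. Other Hox genes are not analysed here. The cells were mouse CGR8, an embryonic stem (ES) cell line of strain SV129, and all 4 groups came from this line. EBIO is a small molecule that opens the calcium-activated potassium channels encoded by the Kcnn genes, and the series' title names heart cell formation and pacemaker-like cells as its subject. EBIO-treated ES cells (n = 3) had 1 mM EBIO for 3 days, and control ES cells (n = 3) had none; both groups came from passages 25, 26 and 27. EBIO-treated differentiated cells (n = 2) had been embryoid bodies for 5 days and then grew for 10 days with EBIO, at a dose the labels do not give. Control differentiated cells (n = 2) had the same 5 and 10 days without EBIO.

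Hox proteins bind DNA through their homeodomain and give cells along the body axis their regional identity. In each cluster the genes stand in the order in which they are used from head to tail, so that low position numbers mark anterior and high ones posterior regions. Their early transcription is opened by retinoic acid, Wnt and Fgf signals, and Polycomb proteins keep the clusters silent in ES cells. Pbx, Meis and Pknox proteins, of the TALE class of homeodomain proteins, bind DNA together with Hox proteins. In the heart, anterior Hox genes are used by progenitors of the inflow and outflow parts.

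Values are log2 expression values that the authors made with RMA, and the number of arrays limits their precision. The ES arrays and the differentiated arrays had been normalized as 2 separate sets, with array medians of 4.52 to 4.62 in the 6 ES arrays and 5.59 to 5.68 in the 4 differentiated arrays. EBIO was therefore compared with control within each stage. A gene was tested with limma where its value passed the array median on a number of arrays no lower than the size of the smaller group. A gene was called at an adjusted p (Benjamini-Hochberg over all genes tested) under 0.05. No detection calls were used here, and RMA compresses the low end of its scale, so a fold against a dim value is understated.

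Of the 33 genes, 19 had an entry in the RefSeq promoter table (build GRCm38.p6). The 250 bases before the start are printed for Hoxd8, Hoxd9 and Hoxc4, which EBIO-treated differentiated cells held at a lower level and which are described next, and for Hoxb4, which was not called. All lie on the plus strand of this build, and Hoxc8 is named only. Capitals mark the letters AGGTCA, a short site bound by nuclear receptors such as the retinoic acid receptors, and the letters CCAAT, each on either strand.
Hoxd8, chr2:74704365-74704614: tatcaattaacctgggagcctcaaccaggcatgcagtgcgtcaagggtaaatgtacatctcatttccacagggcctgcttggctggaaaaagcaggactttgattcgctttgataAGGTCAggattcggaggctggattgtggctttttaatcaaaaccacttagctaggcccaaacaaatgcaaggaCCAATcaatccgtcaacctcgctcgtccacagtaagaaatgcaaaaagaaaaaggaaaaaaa
Hoxd9, chr2:74697513-74697762: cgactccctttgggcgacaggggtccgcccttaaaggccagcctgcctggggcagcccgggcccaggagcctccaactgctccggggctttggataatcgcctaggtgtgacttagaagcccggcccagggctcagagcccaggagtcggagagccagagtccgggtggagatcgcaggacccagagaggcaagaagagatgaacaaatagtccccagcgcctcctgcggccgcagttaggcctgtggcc
Hoxc4, chr15:103034145-103034394: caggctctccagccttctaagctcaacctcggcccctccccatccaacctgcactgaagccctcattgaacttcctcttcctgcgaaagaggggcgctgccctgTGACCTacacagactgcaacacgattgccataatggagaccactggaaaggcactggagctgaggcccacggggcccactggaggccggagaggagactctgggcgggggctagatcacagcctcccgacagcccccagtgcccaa
Hoxb4, chr11:96318017-96318266: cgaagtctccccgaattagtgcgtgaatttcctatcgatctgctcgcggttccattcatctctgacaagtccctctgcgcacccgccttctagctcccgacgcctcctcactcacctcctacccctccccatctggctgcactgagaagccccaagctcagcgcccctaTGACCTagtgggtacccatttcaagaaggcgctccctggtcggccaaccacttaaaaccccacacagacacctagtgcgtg
The AGGTCA site stood once in the Hoxd8, Hoxc4 and Hoxb4 windows and not in that of Hoxd9. It was present in 14.02% of all 32851 promoters listed by RefSeq and in 5 of the 21 promoter entries of the Hox genes. CCAAT stood in 33.9% of all promoters and in 11 of the 21 Hox entries. The letters TGATNNAT, bound by Hox and Pbx proteins together, were in 7.68% of all promoters and in 3 Hox entries. TTTATNG, bound by caudal-type proteins, was in 9.81% of all promoters and in 0 Hox entries. These matches describe letters in the windows searched. The Hox entries had a median GC content of 59.2%, against 52.4% over all promoters.

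The comparison of EBIO with control in differentiated cells asked how 10 days of the compound changed the Hox genes of cells leaving the embryoid body stage. Of 16 Hox genes tested, 8 were called lower and 2 higher in EBIO-treated cells, with the rises in Hoxb9 and, by 1 of its 2 probe sets, Hoxa5. Over all 12338 genes tested, 32.6% were called lower and 33.3% higher. Hoxc4, Hoxc8 and Hoxc13, among those called lower, passed the filter only through their control arrays. Once tested they had to be lower with EBIO, so the Hox counts and the adjusted p of these genes are a description. Hoxc8, Hoxd8 and Hoxc4 fell at least 2-fold, and no Hox gene rose 2-fold; over all genes 12.4% were called and at least 2-fold lower and 6.31% at least 2-fold higher. The median Hox difference was -0.22 on the log2 scale, against 0.02 over all genes tested. With all 4 groups fitted together 5 Hox genes were called lower, Hoxc6, Hoxb2 and Hoxb6 no longer among them. A filter at the 75th percentile left 3 Hox genes to test, of which 2 were called lower. In bulk RNA such as this, fewer cells that use a gene and less RNA of it per cell cannot be told apart.

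Hoxc8, which patterns the thoracic skeleton and the motor neurons of the forelimb in mice, had the largest difference of the family. Its values were 3.18 and 3.39 on the EBIO arrays and 7.09 and 7.65 on the control arrays. Both control arrays stood more than 3 log2 units above both EBIO arrays. The log2 difference, EBIO minus control, was -4.08 ± 0.19 (SE), a 17.0-fold fall with an adjusted p of 2.04e-05. The gene passed the filter only through its control arrays, so this p belongs to a gene selected for the difference. The mean rank of Hoxc8 among the non-control probe sets of an array was percentile 10.2 with EBIO and percentile 67.9 in controls, so that the gene lay below the array median in treated cells.

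Hoxd8, a central member of its cluster, had the next largest difference. It read 7.40 and 7.37 with EBIO and 9.08 and 9.14 without, and the groups did not overlap. The difference was -1.73 ± 0.07, a 3.32-fold fall (adjusted p = 1.25e-05). A second Hoxd8 probe set fell likewise (difference -1.96), with values of 6.12 and 6.29 on the EBIO arrays and 8.11 and 8.22 on the control arrays.

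Hoxc4, which mice need for the muscle of the oesophagus, measured 5.35 and 5.05 in EBIO-treated cells and 6.70 and 6.66 in controls. It fell 2.78-fold (log2 difference -1.48 ± 0.11, adjusted p = 0.000128), and its EBIO arrays lay below the array median. Like Hoxc8, it passed the filter only through its control arrays. Hoxd9, used in the lumbar region and the limbs, had values of 5.80 and 5.70 with EBIO, against 6.35 and 6.67 in controls. Its difference was smaller, at -0.75 ± 0.12 (adjusted p = 0.00249), and the groups again did not overlap.

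**Figure D1:**
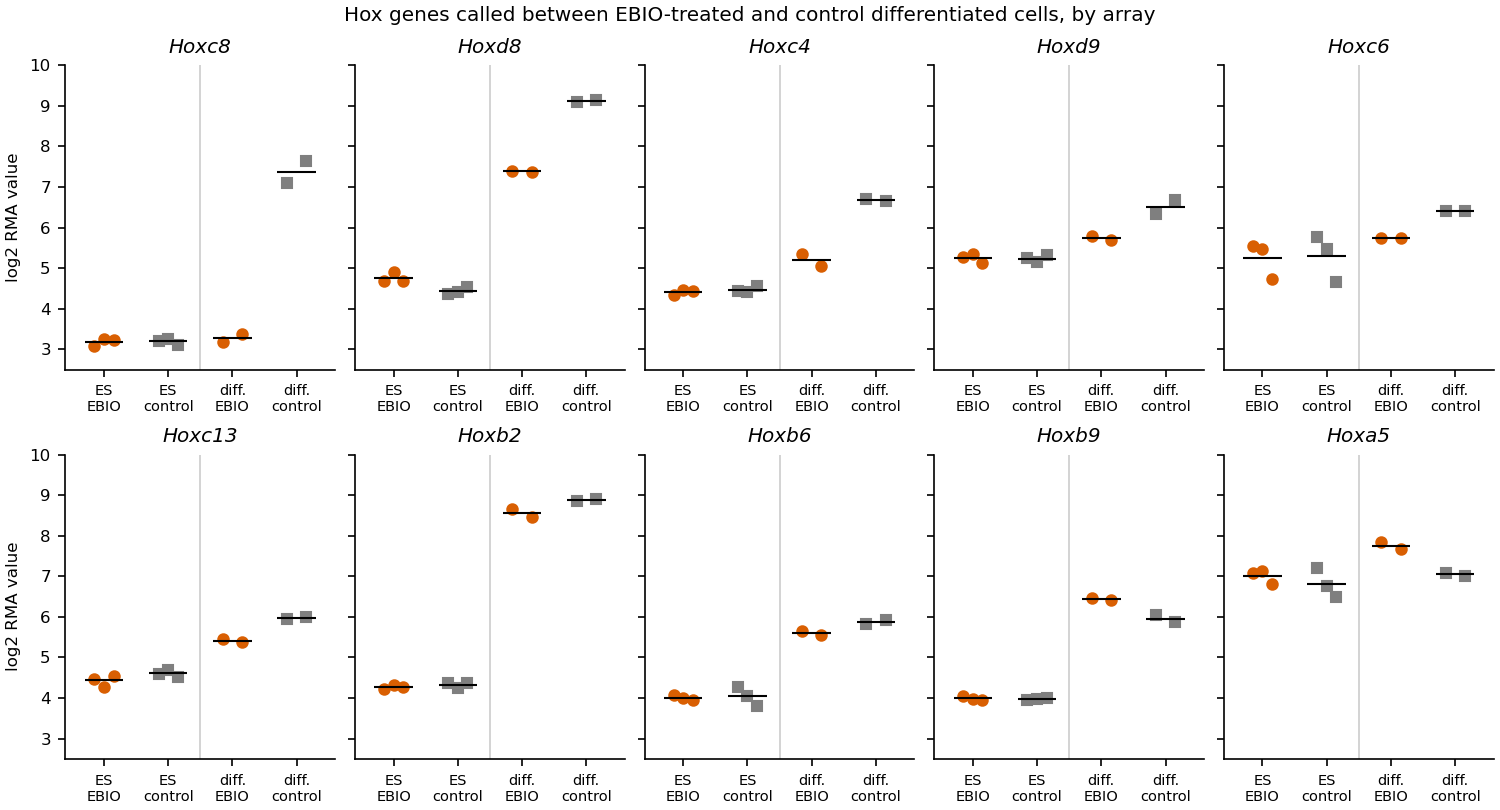
Log2 RMA values (vertical axis) of the 10 Hox genes called between EBIO-treated and control differentiated cells. Each point is 1 array (circles EBIO, squares control), black lines are group means, and ES and differentiated arrays stand on separately normalized scales, so they are to be read within each stage. The control arrays of Hoxc8 at 7.09 and 7.65 stand apart from its EBIO arrays at 3.18 and 3.39.

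The other 4 genes that fell changed by less than 2-fold. Hoxc6, a gene of the upper thorax, had 5.76 and 5.75 on the EBIO arrays and 6.40 on each of the control arrays, a difference of -0.64 ± 0.07 (adjusted p = 0.000416). Hoxc13, known from hair follicles and nails, had 5.46 and 5.37 with EBIO and 5.94 and 6.0 in controls, a difference of -0.55 ± 0.07 (adjusted p = 0.00121). In both genes the groups were separate.

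Hoxb2, which acts in the hindbrain and the facial motor neurons, was at 8.67 and 8.45 with EBIO and 8.84 and 8.89 without. The groups were separate, with a difference of -0.31 ± 0.09 (adjusted p = 0.0301). Hoxb6, of the lateral plate mesoderm, was at 5.66 and 5.56 with EBIO and 5.83 and 5.91 without, and differed by -0.26 ± 0.08 (adjusted p = 0.0282). Both calls were narrow. Hoxb2 was no longer called without EBIO array 2, control array 1 or control array 2 (adjusted p = 0.152, 0.0885 and 0.127). Hoxb6 lost its call when any of the 4 arrays was left out, with adjusted p between 0.0504 and 0.149.

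Hoxb9, a posterior gene that shapes the ribs of the mouse, was called higher with EBIO. Its arrays read 6.46 and 6.41 in EBIO-treated cells and 6.05 and 5.86 in control cells. The rise was 0.48 ± 0.09, or 1.39-fold (adjusted p = 0.00445), and it stood under every alternative run in differentiated cells that tested the gene.

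Hoxa5, needed in mice for the lung and the neck vertebrae, gave opposite answers from its 2 probe sets. The set that stands for the gene had 7.86 and 7.66 with EBIO and 7.09 and 7.0 without, a rise of 0.71 ± 0.09 (adjusted p = 0.00103). Its name ends in _x_at, which marks sets with some probes that also match other sequences. The other Hoxa5 set had 5.03 and 4.83 with EBIO and 6.87 and 6.46 without, a difference of -1.74 ± 0.15 (adjusted p = 0.000205). In ES cells the first set averaged 7.01 with EBIO and 6.82 without, and the second 3.97 with EBIO and 3.93 without. With the mean of both sets the gene was lower by a log2 difference of -0.51 (adjusted p = 0.00682), so no direction is given for Hoxa5.

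Hoxb3 and Hoxc6 also had probe sets that disagreed on the call, though not on direction. The Hoxb3 set that stands for the gene measured 6.43 and 6.62 with EBIO and 6.83 and 6.57 without and was not called. The second Hoxb3 set measured 6.93 and 6.66 with EBIO, against 7.92 and 7.86 in controls, and fell (difference -1.10 ± 0.11). When the representative was chosen on the differentiated arrays alone this set stood for Hoxb3, which was then called lower (adjusted p = 0.000341). Of the 3 Hoxc6 sets, 2 fell (-0.64 and -0.61) and the third differed by -0.23 (adjusted p = 0.254). Both Hoxb4 sets stayed uncalled, at 0.09 and 0.19. Tested set by set, 22 Hox probe sets passed the filter, of which 12 were called lower and 2 higher, against 28.6% and 33.8% of all 21342 probe sets tested.

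**Figure D2:**
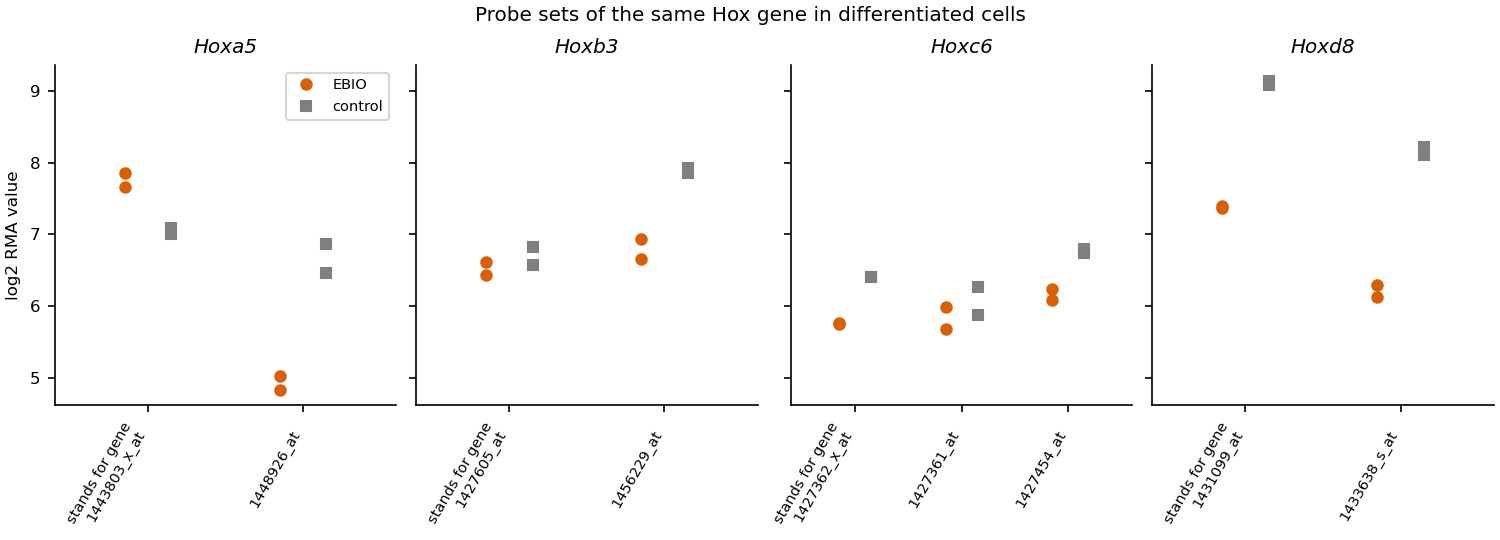
Log2 RMA values (vertical axis) in differentiated cells for each probe set of Hoxa5, Hoxb3, Hoxc6 and Hoxd8; each point is 1 array, EBIO (circles) left of control (squares), and the first set of each panel stands for the gene. The Hoxa5 sets run opposite ways (7.86 and 7.66 with EBIO against 7.09 and 7.0 in controls for the first, 5.03 and 4.83 with EBIO against 6.87 and 6.46 in controls for the second), while both Hoxd8 sets were lower with EBIO.

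The remaining 6 Hox genes tested were not called. Hoxb4, which promotes blood stem cell growth, had 8.15 and 8.16 with EBIO and 8.07 and 8.06 without; the 95% interval of its difference ran from -0.08 to 0.25. Hoxc9, of thoracic motor neurons, had 7.06 and 7.07 with EBIO and 7.13 and 7.17 without, with an interval of -0.25 to 0.08. For these genes a change of 2-fold lay outside the interval.

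Hoxa7 had 6.80 and 6.82 with EBIO and 6.67 and 6.60 in controls, and its interval of 0.01 to 0.35 lay above 0 before adjustment (adjusted p = 0.0647). Hoxa9, a regulator of blood progenitors, had 6.03 and 6.15 with EBIO and 6.09 and 6.23 without. Hoxa3, which the thymus and parathyroid need, had 5.72 and 5.73 with EBIO and 6.04 and 5.65 without. In Hoxa9 and Hoxa3 the groups overlapped, and Hoxa3 was called lower without control array 2 (difference -0.31, adjusted p = 0.0368).

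The other 17 Hox genes were too dim to be tested in differentiated cells, with values of 2.79 to 5.53 on these arrays. Their differences ran from -0.77 for Hoxb5 to 0.37 for Hoxb7. Hoxc4, Hoxc8 and Hoxc13 passed the filter only through their control arrays, so that among the tested genes these 3 had to differ. Over all 33 Hox genes, tested or not, the EBIO values lay wholly below the control values in 16, wholly above them in 8, and overlapped in 9. Over all 18193 genes the groups were separate and lower with EBIO in 34.7% and separate and higher in 38%.

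The calls in differentiated cells were also counted by cluster. In the Hoxc cluster 4 of 5 tested genes fell and 0 rose, with a median difference of -0.64. These include Hoxc4, Hoxc8 and Hoxc13, which passed the filter only through their control arrays, so this count and median are a description. In the Hoxd cluster both tested genes fell, with a median of -1.24. In the Hoxb cluster 2 of 5 fell and 1 rose (median -0.18), and in the Hoxa cluster 0 of 4 were called lower and 1 higher (median 0.05). The Hoxb count leaves out the second Hoxb3 set, which was called lower. The Hoxa call is that of the Hoxa5 set that stands for the gene, against its other set, so no direction is given for it. Over all members of a cluster, tested or not, the medians were -0.07 for Hoxa, -0.18 for Hoxb, -0.55 for Hoxc and -0.35 for Hoxd. The difference between clusters was not tested, since genes of a cluster are not independent.

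By position, and by the sets that stand for the genes, the 3 falls of at least 2-fold stood at paralogue positions 4 and 8. Other probe sets of Hoxa5 (-1.74, position 5) and Hoxb3 (-1.10, position 3) also fell at least 2-fold and are not in the counts that follow. Among the central positions 4 to 8, 5 of 8 tested genes were called lower and 1, the Hoxa5 set that stands for the gene, higher, with a median of -0.45. Hoxc4 and Hoxc8 here, and Hoxc13 among positions 9 to 13, passed the filter only through their control arrays, so these counts and medians are a description. Among positions 9 to 13, 2 of 5 fell and 1 rose (median -0.09), and among positions 1 to 3, 1 of 3 fell and 0 rose (median -0.18). At position 8 both tested genes fell (Hoxc8 by a difference of -4.08, Hoxd8 of -1.73), as they did at position 6 (Hoxc6 -0.64, Hoxb6 -0.26). At position 4, Hoxc4 differed by -1.48 and Hoxb4 by 0.09, and at position 9, Hoxd9 differed by -0.75, Hoxc9 by -0.09, Hoxa9 by -0.07 and Hoxb9 by 0.48. The zone and cluster counts depend on the filter, which left 2 to 8 genes in each, and on which probe set stands for a gene.

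**Figure D3:**
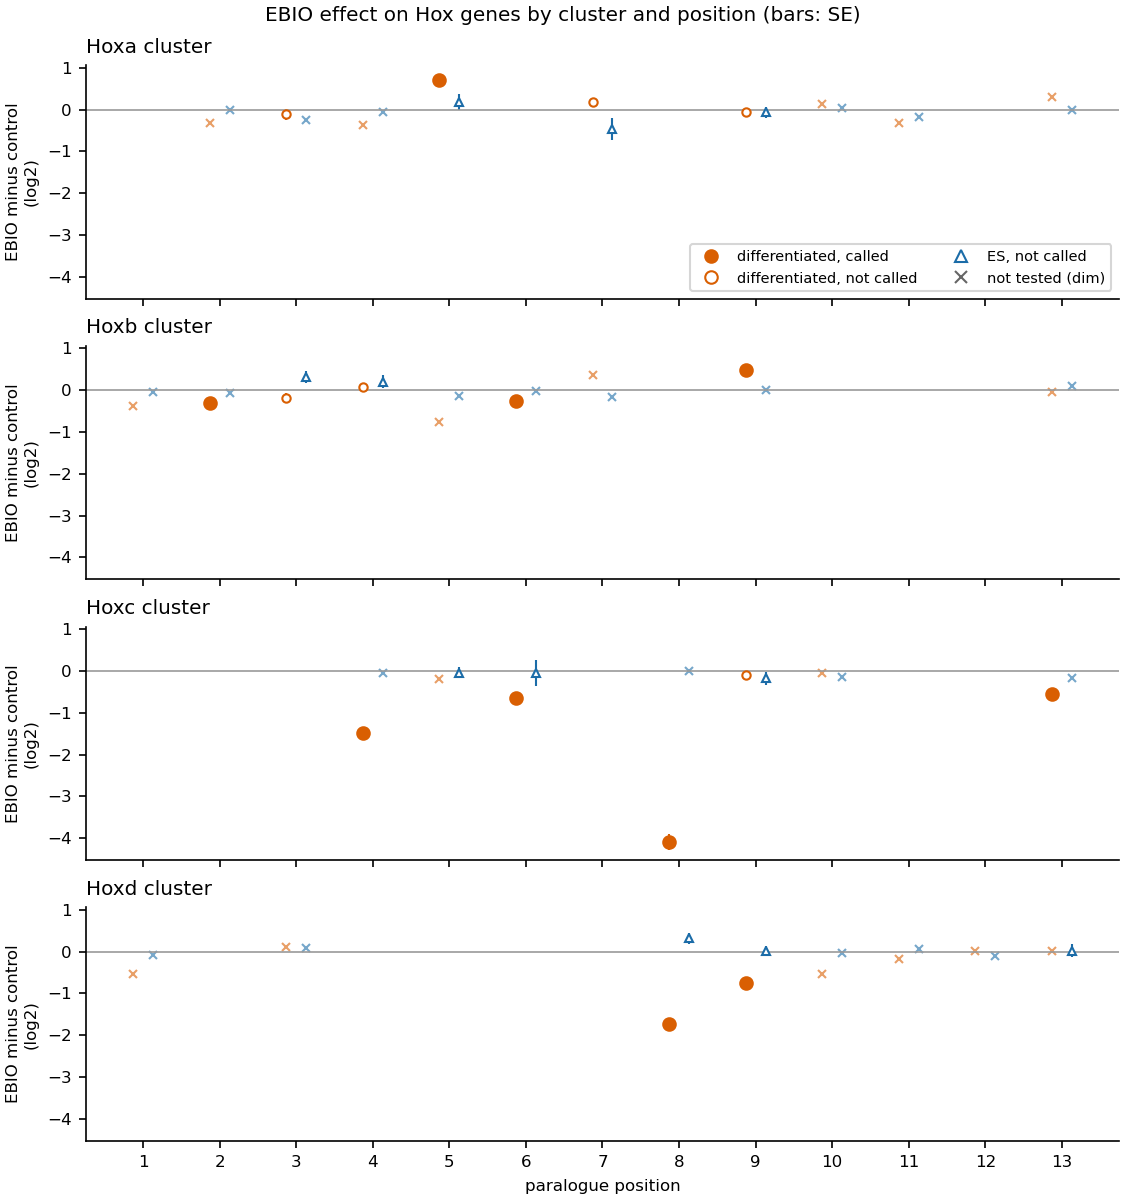
EBIO minus control (log2, vertical axis) for each Hox gene by paralogue position (horizontal axis), with 1 panel per cluster. Circles are differentiated cells and triangles ES cells, filled where called, with SE bars that are often shorter than the symbol; crosses are genes too dim to test. The falls of Hoxc8 (-4.08), Hoxd8 (-1.73) and Hoxc4 (-1.48) stand out, and no ES symbol is filled.

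Markers of several cell types also differed between the groups of differentiated arrays. The counts called are to be read beside the 33.3% called higher and 32.6% called lower over all genes tested. Of 10 cardiomyocyte markers 10 rose with EBIO, and their summed level (sum of unlogged values) was 93757 to 95777 with EBIO and 9791 to 11261 without. Of 9 fibroblast and mesenchyme markers tested 8 fell and 1, Twist1, rose, with summed levels of 4147 to 4386 with EBIO and 56774 to 58695 in controls. Of macrophage and leukocyte markers 6 of 6 fell (163 to 167 with EBIO, 13721 to 16096 without), and of endothelial markers 5 of 5 fell (272 to 297 with EBIO, 1230 to 1295 without). Of endoderm and liver markers 6 of 7 fell and 1 rose (566 to 580 with EBIO, 4617 to 6331 without), and of epithelial markers 6 of 6 fell (4729 to 5332 with EBIO, 11446 to 11749 without). Of neural markers 4 of 6 rose and 2 fell, with sums of 1759 to 1804 with EBIO and 2651 to 2835 without. The 2 that fell were the brightest, Ncam1 (mean 10.03 with EBIO, 10.99 without) and Nes (8.13 with EBIO, 8.90 without), so the sum went against the count. Of smooth muscle markers 3 of 4 rose and 1 fell (21322 to 22948 with EBIO, 12568 to 13090 without), and of skeletal muscle markers 1 of 2, Acta1, rose (339 to 372 with EBIO, 221 to 234 without). Myod1, Myog and Myf5 were too dim to be tested. Above the array median on both EBIO arrays were 0 macrophage and leukocyte, 1 endothelial, 2 endoderm and liver and 7 fibroblast and mesenchyme markers. On both control arrays these were 6, 5, 7 and 9. Lum, Ptprc, Cdh5 and Afp were below the array median on both EBIO arrays. Such markers passed the filter only through their control arrays and, once tested, had to be lower with EBIO. Pax6 and Map2 passed it only through their EBIO arrays and had to be higher. These marker counts are therefore a description. The part of these cell types in the Hox differences was not tested.

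In ES cells, no Hox gene was called after 3 days of EBIO in the fit without pairing, and 1, Hoxa7, was called lower with the shared passage as a replicate block (adjusted p = 0.0135). Without pairing, limma called 0 of 11 Hox genes tested, against 44.8% of all 12096 genes tested in either direction. At an unadjusted p under 0.05 there was 1, Hoxd8, which passed the filter only through its EBIO arrays, and no other tool was run. The Hox differences ran from -0.47 to 0.32 with a median of 0.01, against -0.04 over all genes, and the 95% intervals of the 11 together spanned -1.06 to 0.65. Over all 33 genes the EBIO values lay wholly above the controls in 2 and wholly below in 1, against 19.9% and 22% of all genes. In the same arrays 8 of 8 markers of pluripotent cells fell (summed level 4357 to 4853 with EBIO and 29631 to 32510 without). Of smooth muscle markers 3 of 4 tested rose (6547 to 7772 with EBIO, 282 to 557 without), of skeletal muscle markers 1 of 2, Acta1, rose (1159 to 1487 with EBIO, 128 to 184 without) and of epithelial markers 3 of 6 rose and 2 fell (11547 to 15278 with EBIO, 2943 to 4036 without). Of neural markers 3 of 7 rose and 2 fell, of cardiomyocyte markers 2 of 4 fell, of endothelial markers 2 of 4 fell and of macrophage and leukocyte markers 1 of 3 fell; fibroblast (1 tested) and endoderm markers (5 tested) had 0 calls. Map2, a neural marker, passed the filter only through its EBIO arrays. Tek, an endothelial marker, passed only through its control arrays, so once tested the directions of both were fixed. The part of these shifts in the Hox values was not tested.

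Hoxd8 had 4.69, 4.91 and 4.68 in EBIO-treated ES cells and 4.36, 4.43 and 4.54 in controls. The groups were separate and close to the array median, with a difference of 0.32 ± 0.13 (adjusted p = 0.0711). On the ES arrays Hoxd8 passed the filter only through its EBIO arrays, so once tested it had to be higher with EBIO. It was called when all 4 groups were fitted together (adjusted p = 0.0247) and when all 10 arrays were quantile normalized (difference 0.47, adjusted p = 0.0314). The second Hoxd8 probe set leaned the other way, with 3.74, 3.77 and 3.66 with EBIO and 3.97, 4.06 and 3.71 without. That set was too dim to be tested in ES cells, and its groups overlapped. No direction is therefore given for Hoxd8 in ES cells.

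Hoxa7 had 5.85, 5.85 and 5.25 with EBIO, against 6.57, 6.18 and 5.59 in controls. The third array, from passage 27, was the lowest in both groups. The difference was -0.47 ± 0.26 (adjusted p = 0.186). With the replicate block the same difference was called, as given above, and it was -0.73 without control array 3 (adjusted p = 0.0193). Hoxb3 had 4.82, 4.71 and 4.77 with EBIO and 4.29, 4.36 and 4.70 without, a difference of 0.32 ± 0.14 (adjusted p = 0.1). Without control array 3 it was 0.44 (adjusted p = 0.0196), so the Hoxb3 call appeared with this library left out, and the Hoxa7 call with it left out or with passage as a block. With that library left out, Hoxb3 passed the filter only through its EBIO arrays.

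The other members above the array median in ES cells showed no call. The Hoxa5 set that stands for the gene had 7.09, 7.13 and 6.80 with EBIO and 7.19, 6.76 and 6.50 without. Hoxc9 had 6.52, 6.70 and 6.38 with EBIO and 6.87, 6.80 and 6.46 without. Hoxa9 had 5.58, 5.66 and 5.44 with EBIO and 5.75, 5.61 and 5.53 without. In all 3 the groups overlapped. Hoxc9 was lower with EBIO in each of the 3 passages, by a mean difference of -0.18, and was not called with the replicate block either (adjusted p = 0.233).

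Hoxc6 had 5.54, 5.47 and 4.73 with EBIO and 5.76, 5.47 and 4.67 without, with the third array again the lowest of each group. Hoxd9 had 5.27, 5.35 and 5.12 with EBIO and 5.25, 5.14 and 5.32 without. Hoxb4 had 5.05, 5.10 and 4.86 with EBIO and 5.09, 4.73 and 4.59 without. Their differences were -0.05, 0.01 and 0.20, none of them called. The 22 Hox genes not tested lay between 3.09 and 4.70 on the ES arrays and differed by -0.24 to 0.09.

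Whether EBIO acted on a gene differently in the 2 stages was tested as the difference between its effects, over 10 arrays. Of 18 Hox genes tested, 4 had a lower effect in differentiated cells and 1 a higher one, against 25% and 20.5% of all 13712 genes tested. The lower ones were Hoxc8 (-4.08 ± 0.22, adjusted p = 1.30e-07), Hoxd8 (-2.05 ± 0.16, adjusted p = 2.07e-06), Hoxc4 (-1.42 ± 0.17, adjusted p = 4.55e-05) and Hoxd9 (-0.76 ± 0.18, adjusted p = 0.00558). By its second probe set the Hoxd8 value was smaller in size, at -1.76 ± 0.18 (limma on single probe sets, adjusted p = 2.27e-05). The higher one was Hoxb9 (0.47 ± 0.15, adjusted p = 0.0246), which was not called without EBIO array 1, EBIO array 2 or control array 2 of the differentiated set. With the replicate block 3 genes were called higher (Hoxa5, Hoxa7 and Hoxb9) and 5 lower (Hoxc6 in addition). Without ES control array 3 the counts were 3 higher and 5 lower. Hoxc8, Hoxc4 and Hoxd8 lay near or below the array median in control ES cells (percentiles 4.33, 47.4 and 46.5), where the scale leaves little room for a fall, and Hoxc8 and Hoxc4 passed the filter through the differentiated control arrays. Hoxc8 was at 3.09, 3.26 and 3.23 with EBIO and 3.21, 3.26 and 3.12 without in ES cells, near the bottom of the arrays. Hoxc4 was at 4.34, 4.47 and 4.44 with EBIO and 4.45, 4.42 and 4.56 without there, and Hoxb9 at 4.06, 3.97 and 3.95 with EBIO and 3.96, 3.98 and 4.01 without.

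Since the stages were normalized apart, levels of untreated differentiated and untreated ES cells are given as percentile ranks and without a test. All ranks are among the non-control probe sets of an array, not among genes. Hoxd8 stood at percentile 84.3 in control differentiated cells and at percentile 46.5 in control ES cells. Hoxb2 stood at percentile 82.1 in control differentiated cells and percentile 43.7 in control ES cells, and Hoxb4 at percentile 74.5 in control differentiated cells and percentile 55.0 in control ES cells. Hoxc8 had the widest gap, at percentile 67.9 in control differentiated cells and percentile 4.33 in control ES cells. These 4 genes were the ones at least 1 log2 unit higher in control differentiated cells both relative to the array medians and after quantile normalization of all 10 arrays; 16.7% of all genes were. Of the 33 Hox genes 1, Hoxd12, was at least 1 log2 unit lower on both scales, against 11.3% of all genes.

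Other Hox genes ranked higher in control ES cells. Hoxa5 stood at percentile 64.7 in control differentiated cells and percentile 78.2 in control ES cells, Hoxc9 at percentile 65.8 in control differentiated cells and percentile 77.4 in control ES cells, and Hoxa7 at percentile 60.9 in control differentiated cells and percentile 72.3 in control ES cells. Above the array median on every array of a group were 12 Hox genes in EBIO-treated and 15 in control differentiated cells, and 9 in EBIO-treated and 7 in control ES cells. Of all genes, 65.1% were above it on both control differentiated arrays and 61.2% on all 3 control ES arrays. There were 7 genes above it on all 10 arrays and 14 on none. The median Hox difference between the untreated stages was -0.57 relative to the array medians and 0.03 after quantile normalization, against -0.17 and -0.11 over all genes, so its sign depends on the scale; 24 of 33 genes had the same sign on both. With EBIO, Hoxd8 stood at percentile 68.6, Hoxc4 at percentile 44.0 and Hoxb2 at percentile 79.1 of differentiated arrays.

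**Figure D4:**
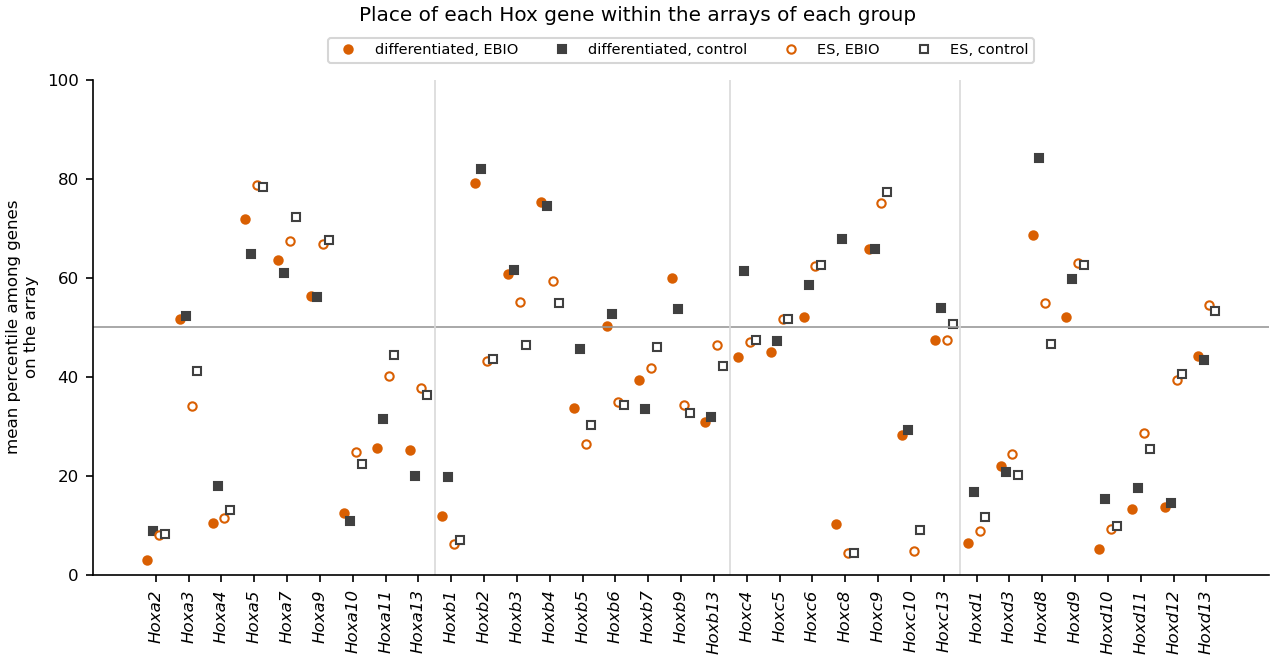
Mean percentile rank of each Hox gene among the non-control probe sets of an array (vertical axis, where the label says genes) in EBIO-treated (circles) and control (squares) cells. Filled symbols are differentiated cells and open symbols ES cells, and grey lines part the clusters. Hoxd8 and Hoxb2 rank at 84.3 and 82.1 in control differentiated cells, against 46.5 and 43.7 in control ES cells, and Hoxc8 ranks at 10.2 with EBIO and 67.9 in controls.

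Genes that work with or upstream of the Hox genes were described from gene lists. The counts called are to be read beside those over all genes tested. These were 33.3% higher and 32.6% lower in differentiated cells, and in ES cells 2846 higher and 2567 lower of 12096. Of the TALE cofactors, which bind DNA beside Hox proteins, 5 of 7 tested rose and 1 fell in ES cells with EBIO (median difference 1.23, against -0.04 over all genes). Meis2 (2.75 ± 0.22), Meis1 (2.32 ± 0.21) and Pbx3 (1.79 ± 0.19) rose the most there, and Pknox1 fell by 0.46 ± 0.12. Meis1 and Meis2 passed the filter in ES cells only through their EBIO arrays and, once tested, had to be higher with EBIO. The count and median of this list in ES cells are therefore a description. In differentiated cells 2 of 7 rose and 2 fell with EBIO (median 0.10, against 0.02 over all genes). Pknox2 rose by 1.48 ± 0.07 and Pbx3 by 1.06 ± 0.10, while Pbx2 differed by -0.41 ± 0.08 and Meis2 by -0.25 ± 0.07.

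Of the retinoic acid genes tested in differentiated cells, 7 of 11 fell and 2 rose with EBIO (median -0.93). Aldh1a1, Aldh1a2 and Crabp2, among those that fell, passed the filter only through their control arrays. Once tested they had to be lower with EBIO, so this count and median are a description. Of all genes tested there, 32.6% were called lower and 33.3% higher. Aldh1a1 and Aldh1a2, enzymes that make retinoic acid, differed by -6.23 ± 0.10 and -4.82 ± 0.16, and both were called. Dhrs3, which turns retinaldehyde back into retinol, fell by 5.10 ± 0.14. Rdh10, which makes retinaldehyde, rose by 1.02 ± 0.12 and the receptor gene Rxrb by 0.39 ± 0.08. Aldh1a1 averaged 4.47 with EBIO and 10.69 in control differentiated cells.

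In ES cells 5 of 10 retinoic acid genes tested fell with EBIO and 1 rose (median -0.36). The receptor genes Rarg and Rara were lower, with differences of -3.46 ± 0.17 and -1.07 ± 0.24, and Crabp1, a retinoic acid binding protein, fell (difference -1.50 ± 0.18). Crabp1 passed the filter there only through its control arrays, so once tested it had to be lower with EBIO. Rdh10 rose by 2.97 ± 0.16. Aldh1a1, Aldh1a2 and Dhrs3 were not tested there, as they were too dim.

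**Figure D5:**
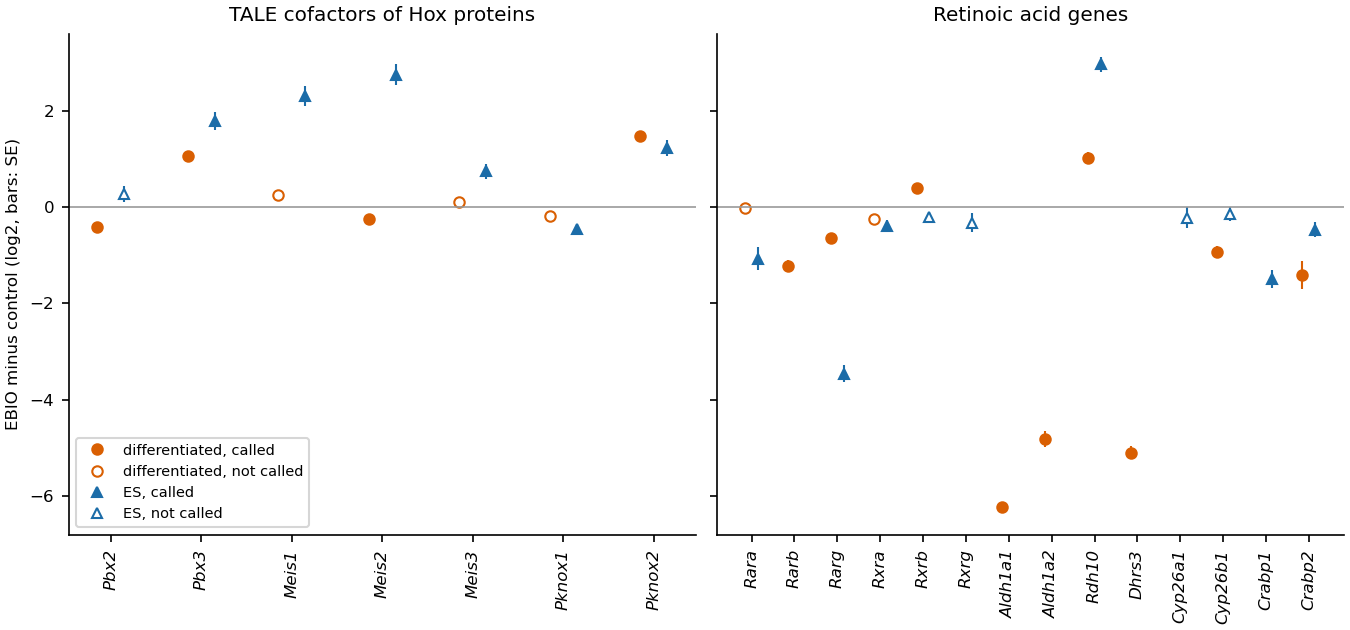
EBIO minus control (log2, vertical axis, bars SE) for TALE cofactor genes (left) and retinoic acid genes (right) that were tested in at least 1 stage; circles are differentiated cells and triangles ES cells, filled where called. Meis1 and Meis2 rose in ES cells (2.32 and 2.75), and Aldh1a1, Dhrs3 and Aldh1a2 fell in differentiated cells (-6.23, -5.10 and -4.82). Meis1 and Meis2 passed the filter there only through their EBIO arrays, and Aldh1a1 and Aldh1a2 only through their control arrays.

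Of the Cdx and posterior axis regulators, which open Hox clusters in the tail bud, 1 of 5 tested rose and 1 fell in differentiated cells (median 0.11), and 0 of 5 were called in ES cells (median -0.09). Fgf8, a growth factor of the tail bud, fell by 2.74 ± 0.10 and Gdf11, which sets the trunk to tail switch, rose by 0.31 ± 0.07. Fgf8 passed the filter only through its control arrays, so once tested it had to be lower with EBIO. Of the ParaHox and Evx genes, relatives of the Hox genes, 0 of 2 tested were called in differentiated cells (median 0.11) and 0 of 1 in ES cells (0.04). Of the hindbrain and early axis regulators 2 of 3 tested rose and 1 fell in differentiated cells (median 0.20): Egr2, a hindbrain activator of Hoxb2 in mice, rose by 1.21 ± 0.07, Six3 rose by 0.20 ± 0.07 and Emx2, of the forebrain and urogenital tract, fell by 2.26 ± 0.14. Egr2 and Six3 passed the filter only through their EBIO arrays, and Emx2 only through its control arrays. Once tested their directions were fixed, so this count and median are a description. In ES cells 2 of the 3 tested fell (median -1.23), Gbx2 with a difference of -1.68 ± 0.19 and Otx2 with -1.23 ± 0.19. Otx2 passed the filter there only through its control arrays, so once tested it had to be lower with EBIO.

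Chromatin regulators of the Hox clusters were mostly higher or uncalled with EBIO in differentiated cells. Of the Polycomb group, which silences Hox genes, 12 of 21 tested rose with EBIO and 0 fell (median 0.33), led by Ring1 (0.91 ± 0.07), Cbx2 (0.77 ± 0.11) and Jarid2 (0.71 ± 0.10). Of all genes tested there, 33.3% were called higher and 32.6% lower. Of the Trithorax genes and H3K27 demethylases, which keep Hox genes active, 8 of 11 rose and 1 fell (median 0.39). Kmt2c (1.19 ± 0.07), Kmt2d (1.05 ± 0.07) and Kdm6b (0.94 ± 0.07) rose the most, and Men1 fell by 0.26 ± 0.07.

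In ES cells the Polycomb group moved both ways with EBIO: 5 of 22 rose and 10 fell (median -0.21). Of all 12096 genes tested there, 2846 were called higher and 2567 lower. Phc2 (2.99 ± 0.18), Bmi1 (2.13 ± 0.17) and Cbx2 (1.52 ± 0.17) rose, and Phc1 (-3.16 ± 0.19), Jarid2 (-1.69 ± 0.16) and Pcgf1 (-1.44 ± 0.18) fell. Of the Trithorax list 2 of 11 rose and 4 fell (median -0.37), among them Men1 (1.00 ± 0.13), Kdm6b (0.69 ± 0.18), Ash2l (-1.16 ± 0.16), Dpy30 (-1.13 ± 0.12) and Wdr5 (-0.43 ± 0.14).

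Genes that neighbour the Hox clusters were compared to see whether the surroundings moved with them. Of all genes tested, 33.3% were called higher and 32.6% lower in differentiated cells. In ES cells 2846 of 12096 were called higher and 2567 lower. Of the listed neighbours 8 of 16 tested rose and 3 fell in differentiated cells (median 0.23), with Chn1 (1.47 ± 0.12), Jazf1 (0.72 ± 0.09) and Calcoco1 (0.70 ± 0.12) highest and Skap2 (-0.54 ± 0.09), Hnrnpa1 (-0.41 ± 0.10) and Snx10 (-0.32 ± 0.09) lowest. Chn1 and Ttll6, among those that rose, passed the filter only through their EBIO arrays and had to be higher once tested. In ES cells 2 of 17 rose and 6 fell (median -0.20): Lnpk (1.15 ± 0.27) and Cbx5 (0.52 ± 0.12) rose, and Calcoco2 (-1.73 ± 0.28), Hibadh (-1.44 ± 0.16) and Cbx1 (-0.80 ± 0.17) fell the most. By RefSeq gene order, the 3 nearest measured coding genes on each side of each cluster gave 21 genes tested in differentiated cells, whose differences ran from -0.54 to 0.77. The nearest ones to the Hoxc cluster, Calcoco1 and Smug1, differed by 0.70 and -0.14, and those nearest to the Hoxd cluster, Evx2 and Mtx2, by 0.01 and 0.16; these 4 were picked for their place after values were seen.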

How the data were processed

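RNA of 10 samples in 4 groups was labelled with biotin and hybridised to Affymetrix arrays, per the labels' protocols. Each deposited value is a log2 expression level that comes from RMA as run by the authors, according to the submitters' processing notes; its version is not given in the sources used here. From the values, the 6 ES and the 4 differentiated arrays were normalized as separate sets: quantiles differed on average by at most 0.0935 within the ES set and 0.0495 within the differentiated set, and by at least 0.913 between them. The table held 45101 probe sets, 64 of them controls that were left out; 34945 had 1 gene symbol in the platform annotation, 932 had several and 9160 had none. Of the Hox genes 11 had more than 1 probe set; a further 3 probe sets shared by 2 Hox genes were not named.

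Differences were tested by moderated linear models (limma version 3.58.1, R version 4.3.3) that had been checked on simulated data, with Benjamini-Hochberg adjustment over all genes tested and a threshold of 0.05. The filter was the 50th percentile of an array. The EBIO comparisons used the arrays of 1 stage each, and the difference between effects on all 10. Same-numbered ES samples share a passage and so are pairs (correlations of deviations 0.33, 0.23 and 0.61). The design text calls the samples independent experiments. Alternatives were the filter, the probe set choice, joint quantile normalization, intensity trend, replicate block, a fit of all groups and leaving out each array. The Hox genes, the gene lists and the markers were chosen with earlier results of these data known. Hox genes that were called, or above the array median on all arrays of a group, are described by array, and the others by range; Hoxb5, Hoxb7 and Hoxd12, at the ends of ranges, were named after their values were seen. Of each pathway list at most 3 called genes per direction and comparison are named. Promoter sequences and gene order come from RefSeq tables of GRCm38.p6. Some genes of the lists are not analysed here.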

Additional observations from a re-analysis of the deposited data

Results flagged for a closer look

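The effect of EBIO differed between the stages for 5 Hox genes by the interaction term in limma. It was lower in differentiated than in ES cells for Hoxc8 by -4.08, Hoxd8 by -2.05, Hoxc4 by -1.42 and Hoxd9 by -0.76 on the log2 scale, and higher for Hoxb9 by 0.47. Their adjusted p were 1.30e-07, 2.07e-06, 4.55e-05, 0.00558 and 0.0246. Hoxc8 and Hoxc4 passed the filter through the differentiated control arrays, and Hoxc8 stood at percentile 4.33 in control ES cells, where a fall cannot be measured, so these 2 values do not show that ES cells lacked such a fall.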

How the results depend on the processing

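In differentiated cells Hoxb9, Hoxc4, Hoxc8, Hoxc13, Hoxd8 and Hoxd9 kept their direction and call under each alternative that tested them, as did Hoxc4, Hoxc8, Hoxd8 and Hoxd9 in the difference between effects. Hoxa5 reversed in differentiated cells to -0.51 with the mean of its probe sets and to -1.74 with x and s probe sets left out (added after seeing the data), and in the difference between effects to -0.63 with the mean; its probe sets disagree. Hoxb6 lost its call in 9 of 12 alternatives, Hoxb2 in 5 of 13, Hoxc6 in 2 of 12 and Hoxb9, in the difference between effects, in 4 of 15. The median difference between untreated stages reversed to 0.026 after quantile normalization of all 10 arrays. In ES cells the replicate block by passage gave 1 Hox gene lower and 0 higher; quantile normalization and the fit of all 4 groups gave 1 higher each; leaving out 1 array gave 0 to 1 higher and 0 to 1 lower. In differentiated cells no filter gave 4 higher; the 75th percentile filter gave 0 higher and 2 lower, with only 3 Hox genes tested; leaving out x and s probe sets gave 1 higher; the fit of all 4 groups gave 5 lower; the replicate block, whose numbers share no passage here (correlation -0.128), gave 2 higher and 7 lower. For the difference between effects the 75th percentile filter gave 0 higher and 1 lower, quantile normalization 0 higher, the replicate block 3 higher and leaving out 1 array 0 to 3 higher. By cluster and position in differentiated cells, no filter gave 2 higher and 2 lower in Hoxa, 2 higher and 1 lower in Hoxb, 2 higher at central and 2 higher and 4 lower at posterior positions; the mean of probe sets gave 1 lower in Hoxa and 2 lower at anterior positions. Other causes were not tested. With 2 or 3 arrays a group, small differences of dim genes cannot be resolved.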
